A study of Mus musculus with 6 samples.

Results

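The nuclear factor I family of the mouse has 4 genes, *Nfia*, *Nfib*, *Nfic* and *Nfix*, and all 4 were found among the 20624 genes of the table by their symbols. The genes were chosen by family name. The family itself was picked from the size of the *Nfia* difference between genotypes in the authors' comparison, a value that was not used here and that supports nothing below. The table pools 6 RNA sequencing samples of mDCT15 cells, a mouse line labelled as distal convoluted tubule cells, the nephron segment that reabsorbs sodium chloride under the control of the WNK kinases. Of these, 3 were wild type and 3 were *Pkd1*-/-, made by CRISPR/Cas9 editing of the gene for polycystin 1, and both genotypes were grown in the same medium with fetal bovine serum. The sample titles call the edited cells *Pkd1*-/-, whereas their genotype field calls them a knockdown, and the number of edited clones is not given in the sources used here.

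Nuclear factor I proteins are transcription factors that bind DNA as dimers, as homodimers or as heterodimers of any of the family members, through a conserved N-terminal domain. The C-terminal part, which differs between members and splice forms, activates or represses transcription. NFIA is best known for starting glial development and is also needed for a normal urinary tract, NFIB for maturation of the lung and brain, NFIC for formation of tooth roots, and NFIX for the switch from embryonic to fetal muscle and for the brain.

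The values given here are mean normalized counts, that is, the average over all 6 samples of the read count of a gene divided by the size factor of its library. One value per gene stands for both genotypes together. No value of a single sample was analysed, so no spread between replicates and no difference between wild type and *Pkd1*-/- cells is given for the family, and every value below is a description without a test. Since each genotype contributed 3 of the 6 samples, the mean of either genotype lies between 0 and an upper limit that is reached if the other genotype had no reads at all.

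The 4 proteins resemble each other most in the DNA-binding part, and the same stretch of their coding sequence shows how the genes can still be told apart by short reads. The longest run of residues identical in all 4 proteins had 36 residues, from residue 115 to residue 150 of NFIA. It is encoded by 108 bases within exon 2 of each gene. In the GRCm39 genome these bases lie at chr4:97671634-97671741 on the plus strand for *Nfia*, at chr4:82416584-82416691 on the minus strand for *Nfib*, at chr10:81256210-81256317 on the minus strand for *Nfic* and at chr8:85498522-85498629 on the minus strand for *Nfix*. The coding sequences are shown 5′ to 3′, with capitals at the positions where the 4 genes do not all have the same base.
Nfia: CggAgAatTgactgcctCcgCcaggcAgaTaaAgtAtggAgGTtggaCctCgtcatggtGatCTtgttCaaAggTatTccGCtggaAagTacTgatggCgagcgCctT
Nfib: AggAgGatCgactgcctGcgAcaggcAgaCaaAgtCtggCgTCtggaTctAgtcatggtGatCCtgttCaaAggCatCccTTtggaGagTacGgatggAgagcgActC
Nfic: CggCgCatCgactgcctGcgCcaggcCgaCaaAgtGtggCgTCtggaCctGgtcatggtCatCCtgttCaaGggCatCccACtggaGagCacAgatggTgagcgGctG
Nfix: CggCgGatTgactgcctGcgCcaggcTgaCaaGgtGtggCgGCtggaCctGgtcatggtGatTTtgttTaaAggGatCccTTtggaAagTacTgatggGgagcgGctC
Although the encoded residues are the same, 30 of the 108 positions vary among the genes, and 72.2% have the same base in all of them. Between *Nfia* and *Nfix* 19 bases differed, 15 of them at the third position of a codon, and between *Nfia* and *Nfic* 23 bases differed, 19 of them at the third position. The longest identical run between any pair in this stretch was 17 bases, between *Nfic* and *Nfix*.

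Over the whole protein, the encoded sequences of the canonical transcripts had 509 residues for NFIA, 570 for NFIB, 612 for NFIC and 494 for NFIX. In pairwise global alignments, 61.7% of aligned residues were identical on average over the 6 pairs. NFIA and NFIX were the most alike, with 73.6% identity, followed by NFIA and NFIB with 65.8%, and NFIB and NFIC the least, with 53.1%. The identity was not spread evenly. Among residues 1 to 200 of NFIA, 153 (76.5%) were identical in all 4 proteins, whereas among residues 201 to 509 only 46 (14.9%) were. In this second part, NFIX shared 59.9% of the residues of NFIA, NFIB 47.2% and NFIC 40.5%. Each gene is represented here by 1 splice form, with 8 exons for *Nfic* and 11 or 12 for the others. Other splice forms were not aligned, so whether these percentages and the order of the pairs hold for them was not tested. The boundary at residue 200 is a round number and not the measured end of a domain.

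**Figure D1:**
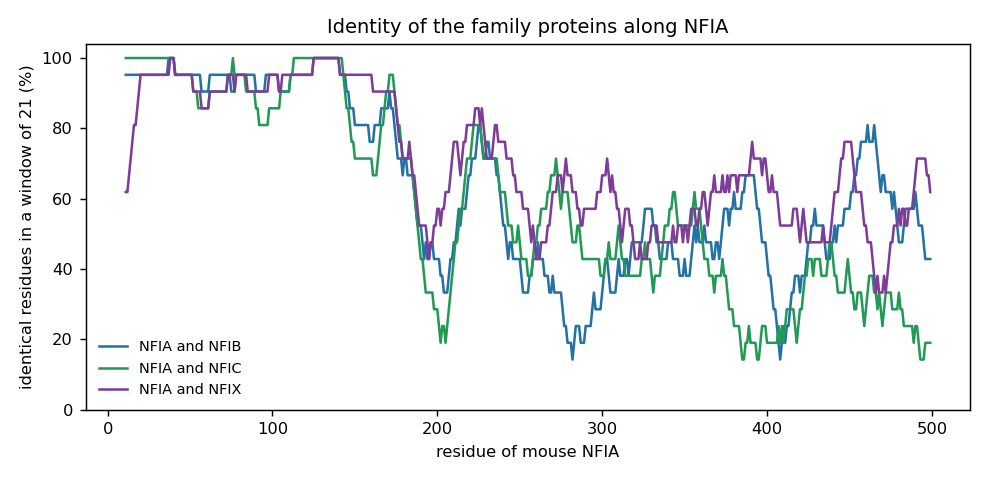
The horizontal axis gives the residue of mouse NFIA and the vertical axis the percentage of identical residues in a sliding window of 21, with 1 line each for NFIB, NFIC and NFIX aligned to NFIA. All 3 lines reach 100% around residue 131, inside the run from 115 to 150, and fall beyond residue 180, where the NFIC line is at 23.8% at residue 201.

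All 4 genes were counted well above the typical gene of the table, whose median mean normalized count was 104.5. *Nfib* had a mean normalized count of 7841, more than that of 99.1% of all genes, and 177 genes were above it. Next came *Nfic* with 4279 and *Nfix* with 3694 mean normalized counts, at percentiles 97.0 and 96.1. *Nfia* had the lowest mean normalized count of the family, 1891, at percentile 89.5, with 2157 genes above it. The ratio of *Nfib* to *Nfia* was thus 4.15, while *Nfic* and *Nfix* differed by a ratio of only 1.16. Together the members added up to 17706, or 0.106% of the normalized counts of the table, of which *Nfib* held 44.3%, *Nfic* 24.2%, *Nfix* 20.9% and *Nfia* 10.7%. These shares are of reads and not of molecules, since longer transcripts give more reads.

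The genes differ widely in length. *Nfia* (ENSMUSG00000028565) spans 346 kb on the plus strand of chromosome 4, from 97660971 to 98007111, and *Nfib* (ENSMUSG00000008575) spans 416 kb on the minus strand of the same chromosome, from 82208410 to 82623987. *Nfic* (ENSMUSG00000055053) is much shorter, with 59.5 kb on chromosome 10 (minus strand, 81232020 to 81291469), and *Nfix* (ENSMUSG00000001911) covers 100.5 kb on chromosome 8 (minus strand, 85426505 to 85527046). The canonical transcript of *Nfia* has 11 exons and 9566 bases, of which only 1527 are coding and 7642 follow the coding part as 3′ untranslated region. That of *Nfib* has 9241 bases in 12 exons, with 6512 bases behind the coding part. The transcripts of *Nfic* and *Nfix* are shorter, with 6064 bases in 8 exons and 5476 bases in 11 exons. Most of the exonic sequence over which reads are counted is therefore untranslated in each of the 4 genes. The annotation lists 14 transcripts for *Nfia*, 22 for *Nfib*, 16 for *Nfic* and 16 for *Nfix*, and a count per gene does not separate them.

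Divided by the length covered by all annotated exons of a gene, the order changed. *Nfic* was then the highest, with a level of 640 mean normalized counts per kb, *Nfix* had a level of 498 per kb and *Nfib* one of 478 per kb. *Nfia* was again the lowest, with 168 per kb, and the level per kb of *Nfic* exceeded it by a ratio of 3.82. The order among *Nfib*, *Nfic* and *Nfix* depended on the length used. With the longest transcript of each gene, *Nfib* came first with 849 per kb, before *Nfic* with 686 and *Nfix* with 599. *Nfia* was the lowest with each of the 4 lengths tried. *Nfix* and *Nfib* differed by a ratio of 1.04 per kb of exon union, and without a replicate error none of the 3 higher members can be placed above the others. For *Nfia*, the mean of 1 genotype could reach at most 3783 normalized counts, which is above the pooled mean count of *Nfix* (3694) and below those of *Nfib* and *Nfic*. Per kb of exon union this limit was 335, below the pooled level of each other member on that scale. Per kb of the longest coding sequence, *Nfic* exceeded *Nfia* by a ratio of only 1.92, so that the limit for *Nfia* lies above the pooled level of *Nfic* there. The other members can also differ between the genotypes within such limits. A limit for *Nfia* set against their pooled levels therefore does not give the order of the members within either genotype.

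**Figure D2:**
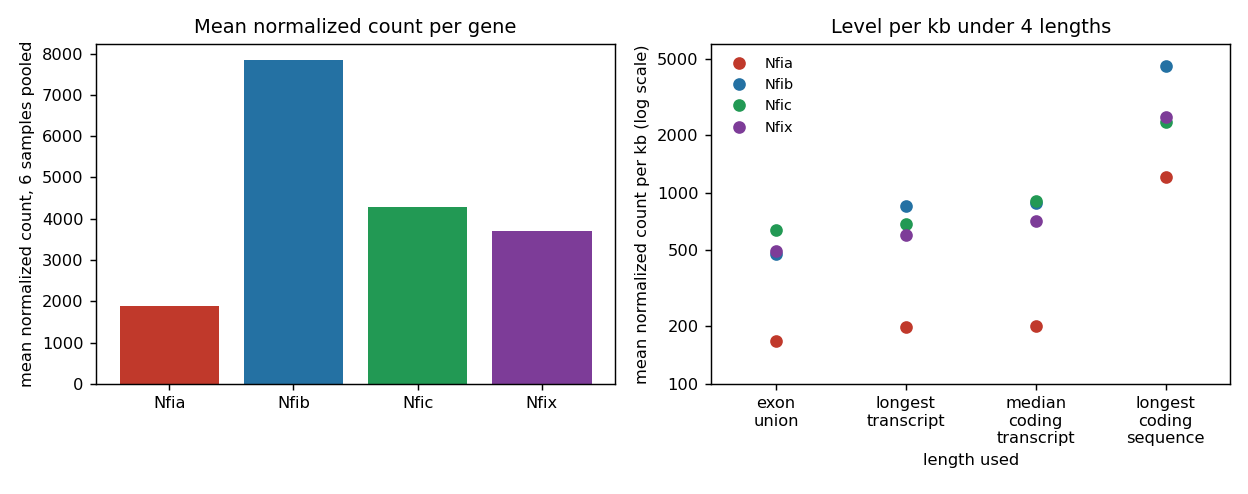
The left panel shows the mean normalized count of each gene over the 6 pooled samples as bars without error bars, from 1891 for *Nfia* to 7841 for *Nfib*. The right panel shows the same counts per kb on a log axis for 4 definitions of length, with 1 point per gene, and the *Nfia* point is the lowest under each of them.

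On the scale per kb of exon union, the median gene had a level of 28.6, with noncoding genes included. Of the 20624 genes of the table, 13862 were annotated as protein coding, and levels per kb were not set against these alone. *Nfic* was at 22.4 times this median, *Nfix* at 17.4 times, *Nfib* at 16.7 times and *Nfia* at 5.86 times. In percentiles per kb of the genes with a length, *Nfic* was at 96.4, *Nfix* at 94.8, *Nfib* at 94.4 and *Nfia* at 80.0. A list of 19 transcription factors with roles in the nephron places these levels further, and 15 of them had a row in the table. Of these 15, *Pax8*, which acts in kidney formation, lay above *Nfic*, with 679 per kb. Directly below *Nfib* came *Tfcp2l1*, a factor of the distal nephron and collecting duct, with 422 per kb, and *Pax2*, which acts together with *Pax8*, with 373 per kb. *Nfia* lay between *Lhx1*, a regulator of early nephron formation, at almost the same level of 168 per kb, and *Sim1* with 146 per kb. In all, 7 of the 15 factors had a higher level per kb than *Nfia* and 1 had a higher level than the other members. These percentiles and orders, and those of the second list below, are of levels pooled over both genotypes. In 1 genotype *Nfia* could reach 335 per kb, above the pooled level of *Lhx1*, or lie below its own pooled level. The listed genes can differ between the genotypes too, so the place of *Nfia* within either genotype is not given. The lowest were *Grhl2* (0.211 per kb), *Wt1*, a podocyte factor (0.345 per kb), and *Hnf4a*, a proximal tubule factor (1.37 per kb).

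**Figure D3:**
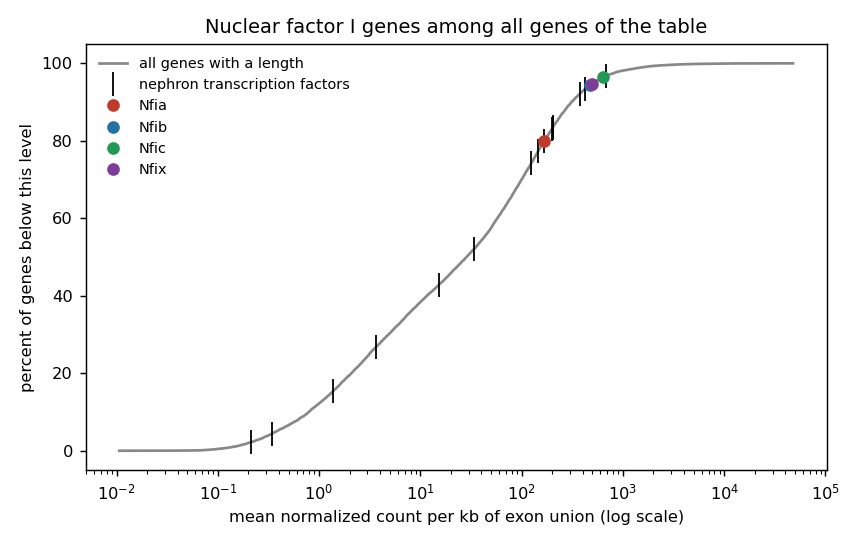
The horizontal axis is the mean normalized count per kb of exon union on a log scale and the vertical axis the percentage of genes below that level, with all genes as a grey line, the 15 nephron transcription factors as black ticks and the 4 family members as coloured points. *Nfia* sits at percentile 80.0, and the points of *Nfib*, *Nfix* and *Nfic* lie close together between percentiles 94.4 and 96.4.

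A second list held 17 genes known as partners, upstream signals or targets of nuclear factor I proteins in other tissues, of which 13 had a row in the table. The highest was *Hes1*, a Notch target that NFIA represses in the developing brain, with 407 per kb. It was followed by *Zcchc24*, a target of NFIA and SOX9 in glia, with 339 per kb, and by *Ezh2*, the histone methyltransferase that NFIB represses in the cortex, with 314 per kb. These 3 genes had a higher level per kb than *Nfia*, and 0 of the 13 had a higher level than *Nfib*, *Nfic* or *Nfix*. Next below *Nfia* came *Notch1*, the receptor upstream of NFIA in glial development, with 123 per kb. *Sox9*, the partner of NFIA in that process, had 37.5 per kb and *Foxa1*, which interacts with family members on shared target genes, 51.6 per kb. At the other end, *Sp7*, an osteoblast and odontoblast factor, had 0.765 per kb, *Gfap*, the astrocyte filament gene that NFIA activates, 0.976 per kb, and *Fabp7*, a lipid-binding protein gene of radial glia, 1.66 per kb. *Mmd2*, *Ckm*, *Myh7* and *Dspp* had no row and were not analysed here. The median level of the 13 genes was 37.5 per kb, against 28.6 per kb over all genes, noncoding ones included. In pooled bulk RNA, expression in fewer cells and less RNA per cell cannot be told apart.

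The reads were 42 bases long, and shared sequence of that length would make a read ambiguous between genes. In windows of this length, transcripts of the 4 genes had 0 sequences in common with each other, out of 11548 different windows for *Nfia*, 16681 for *Nfib*, 7024 for *Nfic* and 7595 for *Nfix*. The longest exact match between coding parts of the family was 32 bases long, between *Nfic* from codon 38 and *Nfix* from codon 29, and is shown in lower case throughout because only this pair is compared and has the same bases.
Shared by Nfic and Nfix: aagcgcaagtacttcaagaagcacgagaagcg
The longest coding match between *Nfib* and *Nfix* was shorter, with 21 bases, from codon 68 of *Nfib* and codon 59 of *Nfix*. Windows shared with transcripts of other genes on the same strand were also rare, with 3 for *Nfia*, 23 for *Nfib*, 0 for *Nfic* and 8 for *Nfix*.

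The picture differed for the opposite strand. The default setting of HTSeq, which the authors used, counts a read only for genes on 1 strand, so that windows shared with the opposite strand bear on the counts only if this setting did not match the libraries, which was not tested. With both strands considered, 8.41% of the *Nfic* windows and 7.95% of the *Nfix* windows were shared with another gene, against 0.0346% for *Nfia* and 0.156% for *Nfib*. For *Nfix* the shared windows came mostly from *Trmt1*, a tRNA methyltransferase gene (307 windows), and *Lyl1*, a blood transcription factor gene (188 windows), both on the opposite strand. The mean normalized count of *Trmt1* was 1178, which is a level of 128 per kb, whereas that of *Lyl1* was 1.59. For *Nfic* the partners were the long noncoding RNA genes *Gm53593* (494 windows), which had no row and was not analysed here, and *Gm16104* (97 windows), with a mean normalized count of 2.40. The microRNA gene *Mir1191b* lies on the same strand inside *Nfic*, with a mean of 2.49, and the noncoding gene *G430095P16Rik* overlaps *Nfix* on the opposite strand, with a mean of 10.9. Inside *Nfia*, the opposite-strand gene *E130114P18Rik* had a mean normalized count of 1.38, and inside *Nfib* the opposite-strand noncoding gene *Gm11266* had one of 11.5.

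The nearest protein-coding genes that do not overlap a member mostly had lower means than the member beside them. The exception was *Nacc1*, whose mean was slightly above that of *Nfix*. Outside the span of *Nfia*, the nearest was *Tm2d1* above it at a distance of 236 kb, with a mean normalized count of 297, and *Gm12695* below it at 988 kb, with a mean of 0.794. *Nfib* lies 92.9 kb from *Zdhhc21*, a palmitoyltransferase gene with a mean of 1241, and 837 kb from *Mpdz*, which encodes a scaffold protein of cell junctions, with a mean of 2483. *Nfic* has closer neighbours, *Smim24* at 0.793 kb with a mean of 2.43 and *Celf5* at 3.59 kb with a mean of 36.1. *Nfix* lies 10.04 kb from *Nacc1*, with a mean of 3772, and 14.99 kb from *Dand5*, with a mean of 57.1. Thus *Nfic* had a high level between neighbours with low ones, and the level per kb of *Nacc1* (508 per kb) was close to that of *Nfix*.

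As to the labelled cell type, 6 of 10 listed genes of the distal convoluted tubule had a row in the table. The mean normalized count was 8468 for *Wnk1* and 413 for *Wnk4*, while *Egf*, *Kcnj10* and *Trpm6* had means of 48.3, 38.3 and 29.6 and *Klhl3* one of 5.70. The defining gene *Slc12a3*, the sodium chloride cotransporter, had no row, as had *Pvalb*, *Calb1* and *Fxyd2*, and they were not analysed here. Markers of other cells gave no uniform picture within several of the lists. Of the proximal tubule genes, *Lrp2* had a mean of 8826 and *Cubn* one of 169, whereas *Slc5a2* and *Slc34a1* had means of 2.77 and 2.04. Of the epithelial genes, *Cdh16* had a mean of 4680, *Epcam* one of 115 and *Krt8* one of 0.980, and *Cdh1* and *Krt18* had no row. The podocyte list had *Podxl* at 1270 and *Wt1* at 2.22, the 3 principal cell genes with a row ranged from 0.618 to 54.1, and 0 of the 4 intercalated cell and 0 of the 4 thick ascending limb genes had a row. The 2 leukocyte genes with a row had means of 5.36 and 41.9, and the 2 endothelial ones had means of 1.04 and 4.68. The 5 fibroblast genes with a row ranged from 2.44 to 200.6, where *Col1a1* was the highest and *Dcn* came next with 6.01. The samples were cultures of a cell line, and whether any cells of these other types were present was not tested. *Pkd1* itself had a mean normalized count of 3175 over both genotypes, which does not check the genotype labels. *Pkd2*, the gene for polycystin 2, had a mean of 4723, and *Actb* and *Tbp* had means of 107295 and 672.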

How the data were processed

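RNA of 3 wild type and 3 *Pkd1*-/- mDCT15 samples was depleted of ribosomal RNA and sequenced in paired reads of 42 bases. Per the labels and the paper's methods, the authors trimmed reads with Trim Galore 0.4.5, mapped them to GRCm39 with STAR 2.7.5a, counted them per gene of Ensembl release 105 with HTSeq 0.11.0 at default settings (counting on 1 strand), and used DESeq2 1.22.0 in R 3.5.3. The deposited value used here is a signal, the authors' mean of the counts divided by size factors over all samples, with no error. The table's other columns hold the authors' comparison of the genotypes (fold changes, standard errors, test statistics and p-values) and were not used, nor was the row order. Columns of single samples left unmatched numbered 0. The depth per sample is unknown, and the deposited means add up to 16746088. The paper states a minimum count per sample and gene, yet the lowest mean normalized count was 0.618. Which filter left the rows is therefore not known, nor whether a gene without a row was undetected, filtered out or not annotated.

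Means were divided by gene length from the GENCODE M39 annotation of GRCm39, a later release than the one the authors counted on; 20122 (97.6%) of the table's identifiers matched it. The main length was the union of exons. Coding sequences came from GENCODE canonical transcripts and were translated, as a protein table was not used here, and aligned with BLOSUM62 (gap opening 11, extension 1). Transcript windows of 42 bases were compared between all annotated genes. Functions were checked on made-up data with known answers. The members, the gene lists and the rule for named genes (members, overlapping and nearest genes, listed genes at the ends of each list and beside a member in the order, and reference genes) were chosen with earlier results of these data known; *Sox9*, *Foxa1* and the cell type markers are named in addition, and 1 gene of the rule is not reported here. Alternatives were other lengths, backgrounds, identity settings and windows. Python 3.11.15, numpy 2.4.6, pandas 2.3.3, Biopython 1.88 and matplotlib 3.10.9 were used.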

Additional observations from a re-analysis of the deposited data

How the results depend on the processing

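No paired analysis was possible because the values used come from no test and pool all samples, so leaving out a replicate, a replicate block and an error of the levels could not be computed from these means; the standard errors in the authors' comparison were not used. *Nfia* remained the lowest member per kb under each length, but the order of the other members changed. The ratio of the highest to the lowest member per kb, 3.82 with the exon union, was 4.31 with the longest transcript (*Nfib* highest), 4.51 with the median protein-coding transcript (*Nfic* highest) and 3.78 with the longest coding sequence (*Nfib* highest). The lowest percentile by mean count, that of *Nfia*, moved from 89.5 to 84.3 when only genes whose mean reached 10 were kept and to 84.6 among protein-coding genes, and its percentile per kb from 80.0 to 75.9 with the longest transcript. The average protein identity moved from 61.7% to 52.3% with gaps counted as differences and to 63.2% with other gap penalties. The share of family windows found in another gene, 0.0794%, was 0.4004% with windows of 30 bases, where *Nfic* and *Nfix* shared 3 windows, and 2.86% with both strands. No depth per sample was available, so counting error is not given.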
